A study of Mus musculus with 5 samples.

Results

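Genes that load and display peptides on MHC class I molecules were described in 5 libraries of sorted mouse cells. The set comprised 10 of the 34240 features of the deposited table, chosen by name: the class I heavy chains H2-K1 and H2-D1, the light chain B2m, the peptide transporter subunits Tap1 and Tap2, tapasin (Tapbp), the immunoproteasome subunits Psmb8, Psmb9 and Psmb10, and Nlrc5. All 10 were found and all passed the filter on low values. Acute myeloid leukaemia (AML) cells sorted as Mac+Gr1+B220+ gave 2 libraries, whose labelled tissue is bone marrow and spleen. The leukaemia had been induced by CNTRL-FGFR1, a fusion of a centrosomal protein with a receptor tyrosine kinase, and the labels do not say how it was introduced. Normal myeloid cells sorted as Gr1+Mac1+ from bone marrow gave 3 libraries. Both groups were BALB/c mice aged 10 to 12 months. Spleen and the B220 sort were features of the AML group alone, so that neither can be told apart from leukaemia. The labels do not say that libraries came from separate animals, and p-values therefore measure only the spread between these libraries, which may be technical.

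MHC class I molecules show peptides from inside the cell to CD8 T cells. The proteasome cuts cytosolic proteins, the TAP transporter carries the fragments into the endoplasmic reticulum, and tapasin holds empty class I molecules at the transporter until a peptide binds. In blood cells, and in other cells under interferon gamma, 3 inducible catalytic subunits replace their constitutive counterparts in the proteasome core, and NLRC5 acts as the transactivator of class I promoters.

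Values were RPKM, read counts scaled to exon length and to the mapped reads of a library, so that levels can be compared between genes, although the exon lengths that the authors divided by are not known here. RPKM totals were 524000 and 638584 in the AML libraries and 472234 to 615921 in the normal libraries. Among marker lists for other cells, 8 of 10 tested monocyte and macrophage genes were lower in AML cells and none was higher, and their summed level was 852 to 998 RPKM in AML and 1031 to 1520 RPKM in normal libraries. Most of the AML sum was Ly6c2, with 953 and 805 RPKM in AML and 461 to 618 RPKM in normal libraries. Ly6c2 went the other way, with both AML libraries above all normal libraries, but did not pass (limma, unadjusted p = 0.038, adjusted p = 0.093). Without Ly6c2 the sums were 44.2 and 46.9 RPKM in AML and 569.9 to 968 RPKM in normal libraries. Of 5 tested T and NK cell genes 4 were higher and Cd3d was lower, with a summed level of 575 to 618 RPKM in AML libraries and 57.1 to 64.6 RPKM in normal libraries. Most of the AML sum came from Cd3e (205 and 233 RPKM in AML, at most 0.56 RPKM in normal libraries), Cd3g and Nkg7, while Lck and Cd2 stayed under 1 RPKM and Trac at 0 in every library. Of 4 tested B lineage genes 1 was lower (sum 11.5 to 14.6 RPKM in AML, 13.8 to 21.3 RPKM in normal), and B220 itself is an isoform of Ptprc that gene-level values cannot show. Of 10 neutrophil genes 6 were lower (sum 170838 to 237542 RPKM in AML, 188633 to 293839 RPKM in normal). In the dendritic cell list 2 of 6 tested genes, Flt3 and Clec9a, were higher (sum 197 to 203 RPKM in AML, 18.2 to 25.4 RPKM in normal), and without Flt3, which made up most of the AML sum, it was 16.03 to 20.63 RPKM in AML and 16.1 to 23.6 RPKM in normal libraries. None of 6 tested erythroid genes passed (sum 148 to 170.3 RPKM in AML, 168 to 2214 RPKM in normal; limma), and 1, Hba-a2, had an unadjusted p under 0.05. Over all tested genes 19.3% were higher and 11.8% lower by the same test. The part of these cell types in the results was not tested, and in bulk samples fewer cells of a type and less RNA per cell cannot be told apart.

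Of the 10 class I presentation genes 6 were higher in AML cells and none was lower. The rise was largest for Nlrc5 and for the immunoproteasome subunits Psmb8 and Psmb9, while H2-D1, B2m, Tapbp and Tap2 did not pass the test. Calls were made with limma on log2(RPKM + 1) across 10166 genes, at a Benjamini-Hochberg adjusted p under 0.05. Of all genes in the test, 31.0% were called, 19.3% in the higher and 11.8% in the lower direction. In 8 of the 10 genes both AML libraries lay above all 3 normal libraries, which held for 34.8% of all tested genes, and no member had both below, which held for 22.1%. The median log2 fold change was 0.92 for the 10 genes and 0.12 for all tested genes. No member had a lower level with an unadjusted p under 0.05 (count 0). All 10 are among the rows deposited with 2 decimals, of which 94.5% had a positive log2 fold change, against 11.9% of rows with 1 decimal, and the part of this row format in the result was not tested. The number of higher members was 3 without normal library 1, 2 without normal library 2, 7 without normal library 3, 3 without AML library 1 and 1, Nlrc5, without AML library 2. Where 1 AML library was left out, the other was assumed to vary like the normal libraries.

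**Figure D1:**
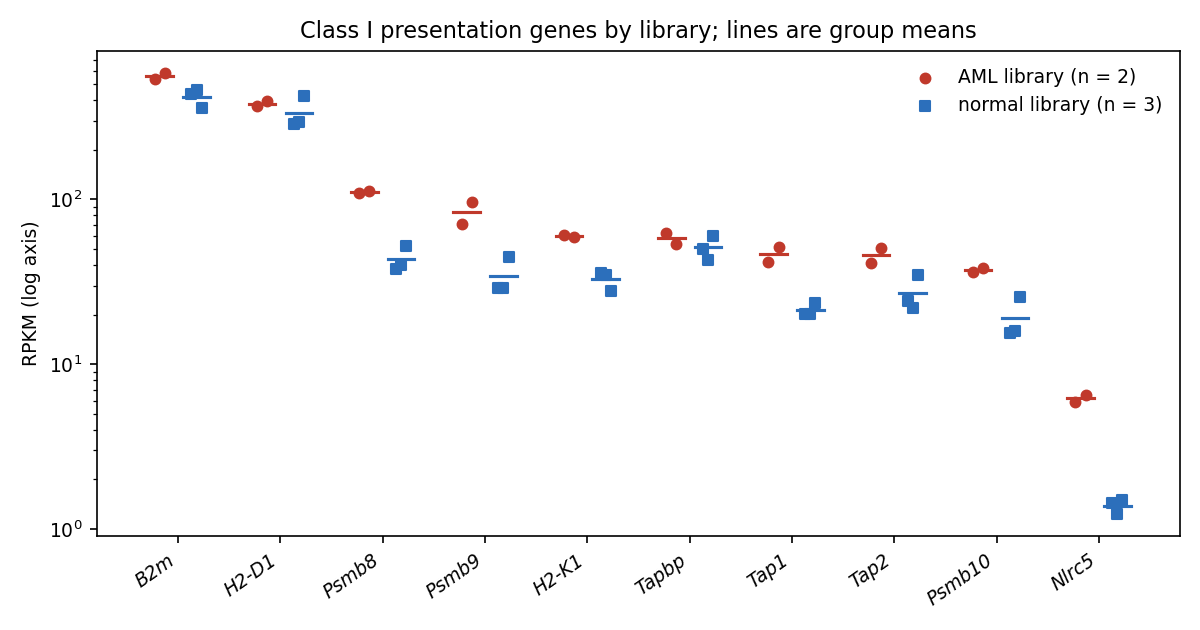
RPKM of the 10 class I presentation genes on a log axis, in 2 AML libraries (red circles) and 3 normal libraries (blue squares), with group means as lines. The AML points lie above all normal points for 8 genes, and they overlap the normal points for H2-D1 and Tapbp.

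**Figure D2:**
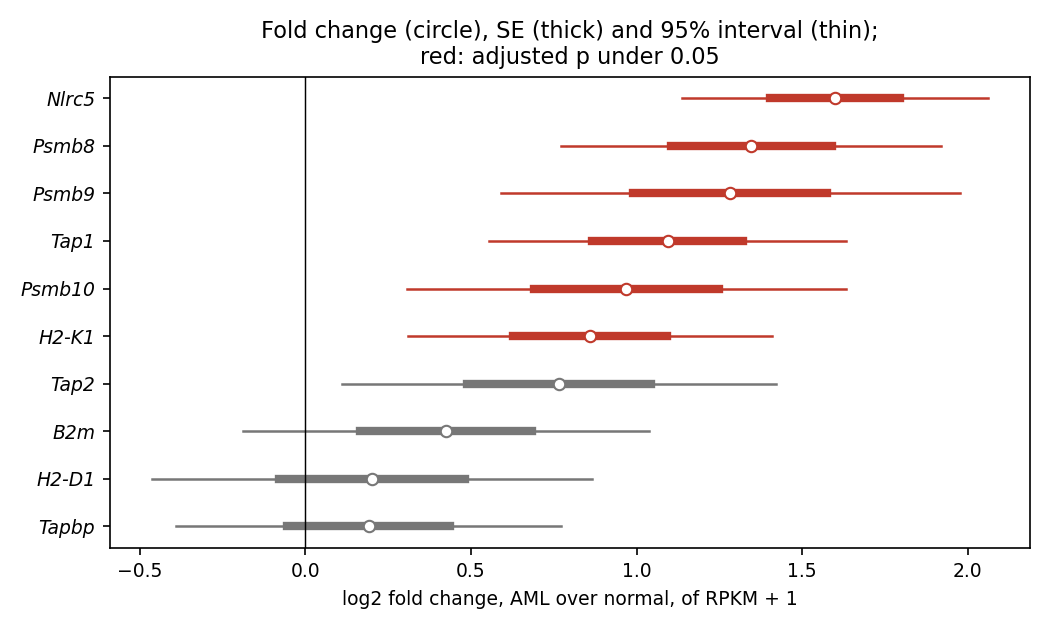
Log2 fold change of AML over normal on the log2(RPKM + 1) scale from limma (circle), with its SE (thick bar) and unadjusted 95% interval (thin bar). Red marks the 6 genes with an adjusted p under 0.05, from 1.60 for Nlrc5 to 0.86 for H2-K1, and grey marks the 4 genes that did not pass.

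Nlrc5, the class I transactivator (ENSMUSG00000074151, mm9 chromosome 8, 96996663 to 97051172), was listed at 5.91 and 6.52 RPKM in AML libraries and at 1.43, 1.23 and 1.49 RPKM in normal libraries. It was the lowest of the 10 genes in every library, and its groups were far apart relative to their spread. The mean was 6.22 ± 0.431 RPKM in AML cells (SD, n = 2) and 1.38 ± 0.136 RPKM in normal cells (SD, n = 3), a 4.49-fold difference. Its log2 fold change was 1.60 (SE 0.20, limma, Benjamini-Hochberg adjusted p = 0.0019), and this call held under all 13 alternatives. In AML cells Nlrc5 exceeded 38.0% of tested genes, and in normal cells 10.0%.

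The immunoproteasome subunits rose together. Psmb8, the inducible counterpart of Psmb5, had 108.73 and 112.94 RPKM in AML libraries and 38.02, 40.14 and 51.96 RPKM in normal libraries. The AML libraries were close to each other, and the lower of them exceeded the highest normal library by far. The ratio of means was 2.56 and the log2 fold change 1.35 (SE 0.24, limma, Benjamini-Hochberg adjusted p = 0.0078). Psmb9, the counterpart of Psmb6, had 71.07 and 96.76 RPKM in AML libraries and 29.13, 28.83 and 44.68 RPKM in normal libraries. Here the spread was wide in both groups, with normal library 3 highest of its group, yet the groups did not overlap. The log2 fold change was 1.28 (SE 0.29, adjusted p = 0.018). Psmb10, the counterpart of Psmb7, had 36.09 and 38.20 RPKM in AML libraries and 15.53, 15.81 and 25.56 RPKM in normal libraries, a ratio of means of 1.96. Normal library 3 again stood above the other normal libraries, at 1.63 times their mean, and the groups did not overlap. Its log2 fold change was 0.97 (SE 0.28, adjusted p = 0.039). Psmb10 lost its call in 8 of 13 alternatives (adjusted p up to 0.19), among them all 3 scalings of the libraries. Psmb9 lost it without either AML library or without normal library 1 or 2 (up to 0.14), and Psmb8 lost it without AML library 2 (0.070).

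The constitutive catalytic subunits did not pass the test (limma, 0 of 3 also at an unadjusted p under 0.05). Psmb5 had 12.02 and 7.64 RPKM in AML libraries and 6.41, 5.42 and 11.54 RPKM in normal libraries (log2 fold change 0.33, unadjusted 95% interval -0.50 to 1.17). Psmb6 had 57.4 and 38.7 RPKM in AML libraries and 35.5, 43.6 and 69.9 RPKM in normal libraries (log2 fold change -0.02, interval -0.84 to 0.81). Psmb7 had 58.3 and 38.5 RPKM in AML libraries and 49.9, 64.8 and 57.3 RPKM in normal libraries (log2 fold change -0.26, interval -0.90 to 0.38). All 3 overlapped between the groups, and the intervals allow changes in either direction. The sign of Psmb6 turned without normal library 3 or AML library 2, and that of Psmb7 without AML library 2.

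Set against its constitutive counterpart, each inducible subunit was more abundant in both AML libraries than in any normal library. The ratio of Psmb8 to Psmb5 was 9.05 and 14.8 in AML libraries and 5.93, 7.41 and 4.50 in normal libraries. For Psmb9 to Psmb6 the ratio was 1.24 and 2.50 in AML libraries and 0.821, 0.661 and 0.639 in normal libraries. For Psmb10 to Psmb7 it was 0.619 and 0.992 in AML libraries and 0.311, 0.244 and 0.446 in normal libraries. Per length, Psmb9 thus stood above Psmb6 in both AML libraries and in no normal library, whereas Psmb10 stayed below Psmb7 in every library. Together the 3 inducible subunits made up 62.8% and 74.5% of the RPKM of these 6 genes in AML libraries, against 47.4%, 42.7% and 46.8% in normal libraries. The log2 differences of the ratios, AML minus normal, were 0.99, 1.32 and 1.28. An exact two-sided permutation test gave p = 0.2 for each, the smallest value that 2 against 3 libraries allow, over 10 arrangements. The highest ratios were those of AML library 2, and without it the log2 differences were 0.63, 0.82 and 0.94. Psmb8 and Psmb5 are both rows with 2 decimals. Psmb9 and Psmb10 also have 2 decimals, but Psmb6 and Psmb7 have 1. Of all rows with 1 decimal 11.9% had a positive log2 fold change, against 94.5% of rows with 2 decimals. The part of this row format in the ratios was not tested.

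**Figure D3:**
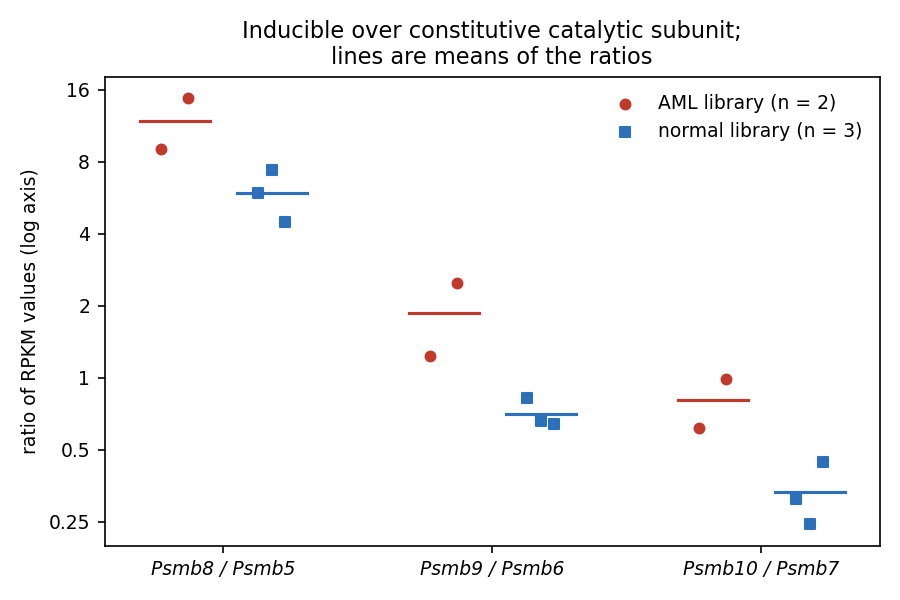
Ratio of the RPKM of each inducible proteasome subunit to that of its constitutive counterpart, on a log axis, in 2 AML libraries (red circles) and 3 normal libraries (blue squares), with means of the ratios as lines. In each pair both AML points lie above all normal points, at 0.619 or more against 0.446 or less for Psmb10 over Psmb7.

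Of the transporter subunits Tap1 rose, and Tap2 did not pass. Tap1, which pairs with Tap2 to form the peptide pump, had 41.67 and 51.62 RPKM in AML libraries and 20.08, 20.18 and 23.48 RPKM in normal libraries. The normal libraries were tightly grouped and lay below both AML libraries. The ratio of means was 2.20 and the log2 fold change 1.09 (SE 0.23, limma, Benjamini-Hochberg adjusted p = 0.013), a call lost without normal library 2 (0.067) or AML library 2 (0.10). Tap2 had 40.85 and 50.95 RPKM in AML libraries and 24.01, 22 and 34.85 RPKM in normal libraries. The groups did not overlap, and normal library 3 stood apart at 1.51 times the mean of the other normal libraries. The log2 fold change of Tap2 was 0.77 (SE 0.28, adjusted p = 0.076), and without normal library 3 it was 0.96 (adjusted p = 0.012). The ratio of Tap1 to Tap2 was 1.02 and 1.01 in AML libraries and 0.836, 0.917 and 0.674 in normal libraries (exact two-sided permutation p = 0.2). Tapbp, the bridge between transporter and class I molecule, had 62.59 and 53.68 RPKM in AML libraries and 50.25, 43.16 and 59.85 RPKM in normal libraries. Its groups overlapped, and its log2 fold change was 0.19 (SE 0.25, unadjusted 95% interval -0.39 to 0.77, adjusted p = 0.57). With scaling without S100a8 and S100a9 it was -0.06.

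Psmb9, Tap1, Psmb8 and Tap2 are neighbours in the class II part of the MHC. In order, Psmb9 (34318932 to 34324709, minus strand), Tap1 (34324498 to 34334170), Psmb8 (34334666 to 34338399) and Tap2 (34340472 to 34353266) follow each other on mm9 chromosome 17. Of 7 tested genes within 60 kb of the Psmb9 start, Psmb9, Tap1 and Psmb8 rose and none fell, against 19.3% higher and 11.8% lower over all tested genes. The genes that rose here are members, which were chosen by name. The class II genes on one side had log2 fold changes of -0.87 (SE 0.33) for H2-DMa, -0.25 (SE 0.24) for H2-DMb2 and -0.03 (SE 0.30) for H2-DMb1, and none passed the test (adjusted p = 0.085, 0.45 and 0.95, limma). H2-DMa and H2-DMb2 are rows with 1 decimal, unlike the members, and the part of this row format was not tested. H2-DMa and H2-DMb genes encode the chaperone that loads class II molecules. H2-Ob, on the other side of Tap2, stayed at 0.5 RPKM or less in every library. The annotated gene bodies of Psmb9 and Tap1 overlap by 212 bases on opposite strands, and Psmb8, Tap2, Psmb10 and B2m overlap other annotated genes on the opposite strand. Tapbp overlaps Zbtb22 on its own strand. The labels name no stranded counting, so reads from such overlaps cannot be told apart.

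**Figure D4:**
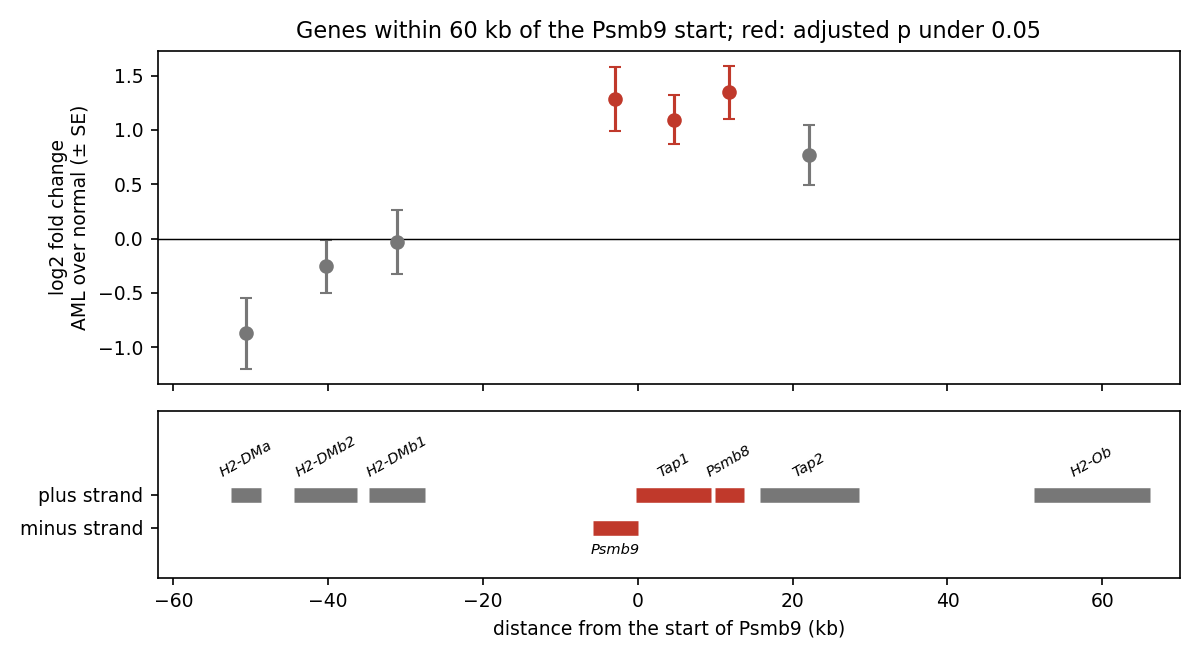
Log2 fold change of AML over normal (± SE, upper panel) and gene bodies by strand (lower panel) against the distance in kb from the start of Psmb9, for genes of the table within 60 kb. Psmb9, Tap1 and Psmb8 (red) passed the test at 1.28, 1.09 and 1.35; Tap2 and the class II genes (grey) did not, and H2-Ob was below the filter.

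Psmb9 and Tap1 are transcribed away from each other from starts 226 bases apart in the RefSeq annotation of the GRCm38.p6 assembly, and both rose. The interval between these starts is shown because in this annotation one stretch of sequence precedes both genes. In the mm9 annotation given above the 2 gene bodies overlap instead, so the annotations differ in where the genes start. It lies at chr17:34187331-34187555 and is written on the plus strand, from Psmb9 towards Tap1. Capitals mark a CCAAT box (CCAAT, on either strand, in 33.8% of 32536 distinct promoter windows of 250 bases before a start) and the core of the X2 box (TGACG, on either strand, in 17.9%).
Psmb9 to Tap1: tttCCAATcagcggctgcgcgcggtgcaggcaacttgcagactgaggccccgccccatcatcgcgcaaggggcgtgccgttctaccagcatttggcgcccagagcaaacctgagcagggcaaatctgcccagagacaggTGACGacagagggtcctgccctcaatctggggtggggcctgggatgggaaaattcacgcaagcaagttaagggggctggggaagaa
The X2 box belongs to the composite element through which NLRC5 and its partner factors act on class I promoters. The X2 core was also found within 250 bases before the starts of H2-K1, H2-D1, B2m, Psmb5 and Psmb6, of which only H2-K1 passed the test. Psmb8 and Psmb10, which rose, had neither the X2 core nor a CCAAT box there. A match describes the letters of the reference strain C57BL/6J and shows neither binding nor a cause.

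Of the class I chains H2-K1 passed the test, and H2-D1 and B2m did not. H2-K1, a classical heavy chain (ENSMUSG00000061232, mm9 chromosome 17, 34132962 to 34137278), had 60.64 and 59.31 RPKM in AML libraries and 35.97, 34.76 and 27.65 RPKM in normal libraries. The AML libraries nearly coincided and both lay above the normal ones. The ratio of means was 1.83 and the log2 fold change 0.86 (SE 0.23, limma, Benjamini-Hochberg adjusted p = 0.031). This call was lost without any one library except normal library 3 (adjusted p up to 0.15), under quantile normalization (0.0503) and when libraries were scaled without S100a8 and S100a9 (0.12). H2-D1, the other classical heavy chain (ENSMUSG00000073411, mm9 chromosome 17, 35399675 to 35404444), had 367.93 and 392.68 RPKM in AML libraries and 287.66, 294.80 and 426.15 RPKM in normal libraries. Both AML libraries lay between normal library 3 and the other normal libraries. Its log2 fold change was 0.20 (SE 0.28, unadjusted 95% interval -0.46 to 0.86, adjusted p = 0.61), and it was below 0 under quantile normalization (-0.03) and with scaling without S100a8 and S100a9 (-0.05). B2m, the light chain shared by all class I molecules (ENSMUSG00000060802, mm9 chromosome 2, 121973422 to 121978819), had 534.79 and 586.31 RPKM in AML libraries and 438.22, 461.79 and 357.27 RPKM in normal libraries. The groups did not overlap, with normal library 3 lowest. The log2 fold change of B2m was 0.43 (SE 0.26, interval -0.19 to 1.04, adjusted p = 0.24), which missed the threshold under all 13 alternatives.

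B2m was more abundant than 99.3% of tested genes in AML cells and 99.2% in normal cells. The ratio of H2-K1 to B2m was 0.113 and 0.101 in AML libraries and 0.0821, 0.0753 and 0.0774 in normal libraries, without overlap (exact two-sided permutation p = 0.2). The ratio of H2-D1 to B2m was 0.688 and 0.670 in AML libraries and 0.656, 0.638 and 1.19 in normal libraries, and here AML lay inside the normal range. BALB/c mice carry another MHC haplotype than the C57BL/6J reference, class I chains are similar and highly variable, and H2-L, a chain of BALB/c, has no row of its own. How reads were divided between these chains was not tested, so the levels of H2-K1 and H2-D1 are uncertain. Normal library 3 stood below both other normal libraries for H2-K1 and B2m, and above both for the other 8 genes. The erythroid markers summed to 168 RPKM in normal library 3, against 2214 and 1450 RPKM in the other normal libraries, and the part of this difference was not tested.

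The promoters of H2-K1, H2-D1 and B2m are shown because they carry the same pair of boxes at the same spacing, while H2-K1 passed the test and H2-D1 and B2m did not. Each holds TGACG followed by exactly 20 bases and an inverted CCAAT box, a pair found in 30 of 32536 windows (0.0922%). Only this spacing, the one that these promoters carry, was counted, so the share is no test of them. The other 5 members with an entry in the RefSeq promoter table lacked this pair within 250 bases of their annotated start, and Tap2 and Nlrc5 were not in the table. Capitals mark the end of the X1 box with the X2 core (CTGNTGACG, in 0.612% of windows and overlapping the TGACG searched), CCAAT boxes, an NF-kappaB site (GGGATTCCC, in 0.301%) and an interferon-stimulated element (GAANNGAAA, in 6.35%), each searched on both strands.
H2-K1: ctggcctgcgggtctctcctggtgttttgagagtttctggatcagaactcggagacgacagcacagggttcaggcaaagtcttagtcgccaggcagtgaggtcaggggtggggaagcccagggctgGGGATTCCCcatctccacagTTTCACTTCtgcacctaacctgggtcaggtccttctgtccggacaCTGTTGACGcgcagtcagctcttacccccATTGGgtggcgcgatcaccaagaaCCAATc
H2-D1: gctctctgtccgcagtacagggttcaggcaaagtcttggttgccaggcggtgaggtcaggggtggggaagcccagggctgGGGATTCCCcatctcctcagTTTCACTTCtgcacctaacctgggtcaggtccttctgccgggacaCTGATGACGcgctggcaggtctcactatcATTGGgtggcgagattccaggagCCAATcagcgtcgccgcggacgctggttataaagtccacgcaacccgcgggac
B2m: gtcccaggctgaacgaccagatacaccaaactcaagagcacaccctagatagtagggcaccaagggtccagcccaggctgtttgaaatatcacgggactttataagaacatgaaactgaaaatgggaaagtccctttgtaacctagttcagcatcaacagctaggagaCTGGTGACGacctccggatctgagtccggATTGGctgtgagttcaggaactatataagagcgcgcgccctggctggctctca
These are the 250 bases before a RefSeq start in GRCm38.p6, 5′ to 3′ on the strand of the gene, at chr17:34000334-34000583 (minus strand, the second of the 2 starts listed) for H2-K1, chr17:35262844-35263093 (plus strand) for H2-D1 and chr2:122147437-122147686 (plus strand) for B2m. The strings GGGATTCCC and GAANNGAAA were found in H2-K1 and H2-D1 and in none of the other 6 members listed. Other forms of an NF-kappaB site or an interferon-stimulated element were not searched. A missing match therefore does not show that B2m or another promoter lacks such a site. Outside the members, the string GAANNGAAA was also matched before Psmb6, which did not pass the test.

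In order of level, AML cells ran B2m, H2-D1, Psmb8, Psmb9, H2-K1, Tapbp, Tap1, Tap2, Psmb10 and Nlrc5. Neighbours in this order overlapped between libraries only for H2-K1 with Tapbp and for Tap1 with Tap2. Normal cells ran B2m, H2-D1, Tapbp, Psmb8, Psmb9, H2-K1, Tap2, Tap1, Psmb10 and Nlrc5, and there every pair of neighbours overlapped except H2-D1 with Tapbp and Psmb10 with Nlrc5. The 5 genes whose centred log2(RPKM + 1) values lay closest to those of B2m over the 5 libraries were Atp5sl, Dcun1d2, Cisd2, Kdm3a and Ccdc132, at Euclidean distances of 0.0602 to 0.0980. None of these 5 passed the test between the groups.

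Other class I and class I-like chains were called about as often as all tested genes in the higher direction. Of 29 listed genes 25 were in the table and 15 passed the filter, of which 3 were higher and 1 lower (median log2 fold change 0.11), against 19.3% higher and 11.8% lower over all tested genes. H2-Q9, a non-classical chain of the Qa-2 group, had 25.34 and 45.26 RPKM in AML libraries and 2.20, 2.64 and 2.11 RPKM in normal libraries. All normal libraries were near 2 RPKM and both AML libraries far above, a ratio of means of 15.2 (log2 fold change 3.40, SE 0.29, limma adjusted p = 0.00057). H2-Q6 had 25.01 and 8.24 RPKM in AML libraries and 5.91, 4.78 and 3.01 RPKM in normal libraries (log2 fold change 1.51, SE 0.46, adjusted p = 0.046), with a wide gap between the AML libraries. Its call was lost in 6 of 13 alternatives, whereas that of H2-Q9 held in all. The Qa-2 genes are near-identical copies between which reads can be split, and their rows are therefore uncertain. The 3 higher genes of this list are rows with 2 decimals, and the lower gene is a row with 1 decimal. The part of this row format in these directions was not tested. Cd1d1, which presents lipids and is named after its values were seen, was 3.04-fold higher (log2 fold change 1.10, SE 0.24, adjusted p = 0.015). Fcgrt, the neonatal Fc receptor chain that also pairs with beta-2 microglobulin, had 1.9 and 2.4 RPKM in AML libraries and 9.6, 8.7 and 4.7 RPKM in normal libraries, 3.57-fold lower (log2 fold change -1.41, SE 0.32, adjusted p = 0.016). Leaving out AML library 2 or normal library 1 cost Cd1d1 its call, with an adjusted p of 0.13 at most. Fcgrt missed it when normal library 2 or one of the AML libraries was left out, at 0.094 at most.

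**Figure D5:**
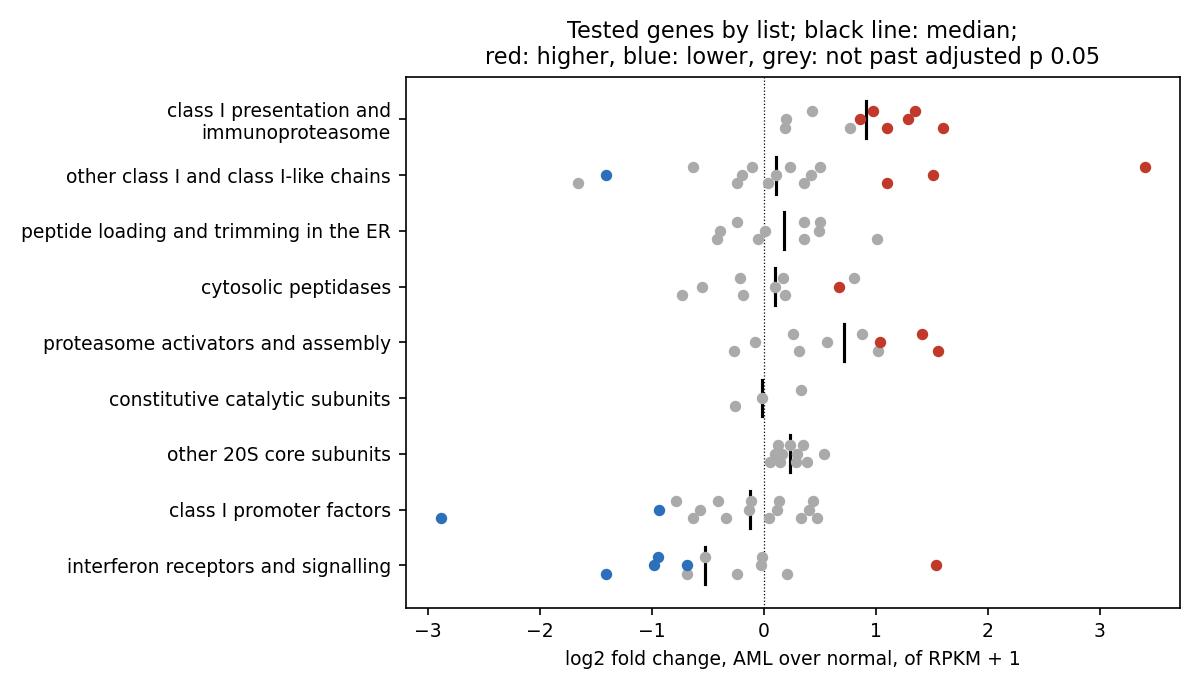
Log2 fold changes of AML over normal for every tested gene of the class I presentation set and of 8 related lists, with the list median as a black line. Red marks genes higher, blue genes lower and grey genes not past an adjusted p of 0.05; the median is 0.92 for the class I presentation set and -0.53 for interferon receptors and signalling.

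Factors that assemble the proteasome rose in part. Of 10 activators and assembly factors 3 rose, against 19.3% of all tested genes, and none fell (median log2 fold change 0.72; limma; 0 lower at an unadjusted p under 0.05). They were Psmg1 (20.09 and 21.16 RPKM in AML, 5.18, 7.01 and 7.11 RPKM in normal libraries), Psmg2 and Psmg3, chaperones of core assembly. Their log2 fold changes were 1.55 (SE 0.23, adjusted p = 0.0039), 1.41 (SE 0.25, adjusted p = 0.0076) and 1.04 (SE 0.30, adjusted p = 0.040). All 3 are rows with 2 decimals, and the part of this row format was not tested. Psmg1 and Psmg2 were clear of the normal range by a wide margin, while Psmg3 lost its call in 8 of 13 alternatives and Psmg2 without AML library 2 (0.078). Psme1 and Psme2, which form the interferon-inducible cap, had log2 fold changes of 0.56 (SE 0.26) and 0.31 (SE 0.31), and Pomp, the maturation factor, 0.87 (SE 0.37). None of these 3, named after their values were seen, passed (adjusted p = 0.14, 0.48 and 0.12). None of the 11 other core subunits passed in either direction, their median was 0.24, and 0 had an unadjusted p under 0.05 (limma). Psma1, the most abundant of them, had 103.23 and 99.12 RPKM in AML libraries and 75.11, 98.80 and 103.46 RPKM in normal libraries.

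Loading factors and peptidases of the pathway mostly missed the threshold. None of 10 loading and trimming factors of the endoplasmic reticulum passed, and 0 had an unadjusted p under 0.05 (median 0.18, limma). Pdia3, the most abundant, is the disulphide isomerase bound to tapasin and had 189.90 and 193.73 RPKM in AML libraries and 109.72, 119.39 and 193.13 RPKM in normal libraries. Normal library 3 matched the AML libraries, and without it Pdia3 passed (log2 fold change 0.74, adjusted p = 0.031). Of 9 cytosolic peptidases Thop1, which destroys antigenic peptides, rose at a low level, with 2.16 and 2.07 RPKM in AML libraries and 1.15, 1.04 and 0.70 RPKM in normal libraries (log2 fold change 0.67, SE 0.19, adjusted p = 0.038). Its call was lost in 8 of the 12 alternatives in which it was tested. None of the 9 was called lower, 2 were lower at an unadjusted p under 0.05, and the median was 0.10. These counts turned with the scaling: 0 were higher and 1, Dnpep, lower with upper quartile scaling, and 0 were higher and 2, Dnpep and Cndp2, lower with scaling without S100a8 and S100a9. Dnpep was also called lower under quantile normalization, the plain variance model, rounding to 1 decimal and without normal library 3. Dnpep and Cndp2 are named after their values were seen. Both are rows with 1 decimal, while Thop1 is a row with 2 decimals, and the part of this row format was not tested.

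Receptor chains for interferon were called in both directions. Of 11 interferon receptor and signalling genes 1 was higher and 4 lower (median -0.53), against 19.3% higher and 11.8% lower over all tested genes. The higher gene, Ifngr1, is a row with 2 decimals, and the 4 lower genes are rows with 1 decimal. The part of this row format in these directions was not tested. Ifngr1, the ligand-binding chain of the interferon gamma receptor, had 219.87 and 238.52 RPKM in AML libraries and 76.99, 80.75 and 76.62 RPKM in normal libraries. It was 2.93-fold higher with no overlap (log2 fold change 1.54, SE 0.22, limma adjusted p = 0.0035). Ifngr2, the signalling partner chain of the same receptor, had 21.8 and 27.5 RPKM in AML libraries and 60.6, 58.4 and 84.1 RPKM in normal libraries. It was 2.75-fold lower (log2 fold change -1.41, SE 0.26, adjusted p = 0.0090), a call lost without either AML library (up to 0.067). Ifnar1, a chain of the type I interferon receptor, was 2.14-fold lower (log2 fold change -0.99, SE 0.22, adjusted p = 0.017). Ifnar2 and Irf9, named after their values were seen, were also lower (log2 fold changes -0.69 and -0.94). Ifnar1, Irf9 and Ifnar2 each lost their call without any one library except normal library 3 (up to 0.18), and Ifnar2 also with other filters on low values.

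Among 16 tested class I promoter factors 2 were lower and none was higher (median -0.12; limma; 0 higher at an unadjusted p under 0.05). Over all tested genes 11.8% were lower, so that this list was called lower about as often. Both lower genes are rows with 1 decimal, and the part of this row format was not tested. Irf8, an interferon regulatory factor of monocytes, had 0.9 and 0.8 RPKM in AML libraries and 14.8, 13.1 and 10.5 RPKM in normal libraries. It was 15.1-fold lower with groups far apart (log2 fold change -2.89, SE 0.23, adjusted p = 0.00045). Most of the monocyte markers given above, though not Ly6c2, were lower in the same libraries. Irf2, which binds interferon-stimulated elements, was 1.94-fold lower (log2 fold change -0.94, SE 0.24, adjusted p = 0.028) and lost its call without any one library except normal library 3 (up to 0.18). Irf1 and the RFX factor Rfx5, also named after their values were seen, had log2 fold changes of 0.33 (SE 0.25) and 0.44 (SE 0.25) and did not pass. The class II transactivator Ciita stayed under the filter, at 0.2 RPKM in both AML libraries and 1.3, 0.7 and 0.2 RPKM in normal libraries.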

How the data were processed

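Libraries from sorted cells were made with a TruSeq RNA kit, per the labels' protocols. The single table of 34240 features has one column per library, matched by title. The authors' values are read as RPKM. No label or header names this unit, and it was inferred because values times exon length in kb summed to 1058689 to 1123962 per library. The submitters' processing notes name mm9 as the build, and no aligner, counter, annotation or filter is stated in any source used. The table holds no counts. The steps of low values in single-exon genes were whole reads for 53.2% to 82.4% of values at the best trial depth, within rounding of the deposited values, against 22.8% to 34.5% by chance, so depth is taken as unknown.

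The 10166 genes that reached 1 RPKM in 2 or more libraries were tested as log2(RPKM + 1), which understates the change of low genes. limma 3.58.1 in R 4.3.3 was used with trend and robust variance options. Tests were two-sided and p-values Benjamini-Hochberg adjusted over all tested genes. Mean, SD and ratios are of RPKM. The fit was checked on simulated data. Members and lists were chosen with earlier results of these data known. Named genes were all 10 members, the 3 called genes of largest change in each of 8 related lists (or the most abundant where none was called), every constitutive catalytic subunit, and the 5 genes closest to B2m. Positions came from GENCODE M1 (mm9), and promoter sequences from RefSeq (GRCm38.p6), which held 8 members. Alternatives were another pseudocount (0.1), other filters, 3 scalings, a plain variance model, rounding to 1 decimal and each library left out.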

Additional observations from a re-analysis of the deposited data

How the results depend on the processing

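All 6 called members kept a positive log2 fold change under all 13 alternatives, and Nlrc5 also kept its call. The number of higher members ranged from 1 to 7 when one library was left out, that of all tested genes from 326 to 2757 higher and from 348 to 2142 lower, and that of the related lists from 4 to 14 higher and from 1 to 14 lower. Main counts were 6 members, 1959 and 1196 genes, and 8 higher and 7 lower genes of the related lists. Higher genes of the related lists numbered 5 with no filter, with upper quartile scaling and with scaling without S100a8 and S100a9. The last of these gave 1266 higher genes over all features. It moved the median of all genes by -0.22 and left 4 higher members, as did quantile normalization. The median of the 10 members then stood 0.77 above that of all genes, against 0.79 in the values as deposited. With no filter the median of all genes moved by -0.13, and without AML library 1 by -0.14. The causes were not tested. No paired analysis was possible because the sample titles of the groups share a single number. With 2 AML libraries and unknown depth, the precision of each value rests on the spread between libraries.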
